A study of Mus musculus with 24 samples.

Results

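The dystrophin-glycoprotein complex is described here through 8 genes, Dmd, Utrn, Sgca, Sgcb, Sgcd, Dag1, Dtna, and Sspn, out of 56941 genes listed. The members were taken by gene symbol, under a rule that uses no measured value, from a list drawn up with earlier results of these data known, and all 8 passed the filter on low counts that left 13315 genes tested. The complex links the actin cytoskeleton of a muscle fiber to laminin in the basement membrane, and it is best known because the loss of dystrophin, or of a sarcoglycan, causes muscular dystrophy. Dystrophin and its paralog utrophin bind actin and the membrane protein dystroglycan, dystroglycan binds laminin through sugars added after translation, sarcoglycans and sarcospan brace dystroglycan in the membrane, and dystrobrevin holds signaling proteins on the inner face. Contraction loads this link, and in adult fibers utrophin is mainly found at neuromuscular and myotendinous junctions.

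RNA came from 1 cell line, C2C12, a mouse myoblast line that fuses into contractile myotubes. Its cells carried the blue-light-gated channel ChR2 tagged with tdTomato (genotype ChR2::tdTomato), were differentiated on fibrin, and were either left unstimulated (control) or paced with light for 60 min daily at 1, 4, or 10 Hz. Each condition has 6 biological replicates, or 24 libraries in all. The controls twitched spontaneously, according to the study, so the comparisons set optical pacing against tissue that was unstimulated and not at rest. All groups share the cell line, the channel, and the fibrin, and no animal was used.

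Libraries held 8052369 to 18159144 estimated counts. All 10 myotube markers were measured, with a summed level of 11278 to 14589 TPM (transcripts scaled by length to a fixed library total) in controls, 8120 to 11863 at 1 Hz, 8325 to 12343 at 4 Hz, and then 10884 to 11792 at 10 Hz. The 6 cycling or undifferentiated myoblast markers summed to 30.4 to 62.1 TPM over all libraries. The 5 fibroblast markers summed to 124.5 to 267.6 TPM, most of it from Dcn (109.6 to 246.1 TPM). Col1a1 had 6.2 to 39.4 TPM, Pdgfra 2.4 to 7.8, and Lum 0.12 to 1.6, and Thy1 was at 0 in 20 libraries. The 4 fat cell markers did not exceed 0.68 TPM in sum, and each was at 0 in 20 or 21 libraries. Of 6 endothelial, blood, and nerve markers, Pecam1, Cdh5, Ptprc, and Sox10 stayed at or under 0.60 TPM, while Cd68 (55.1 to 102.3 TPM) and Tubb3 (21.6 to 98.0 TPM) were present in every library. In bulk RNA, fewer cells of a type and less RNA per cell cannot be told apart.

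On GRCm39, Dmd lies at chrX:81992474-84249747 on the plus strand and Utrn at chr10:12257537-12745265 on the minus strand. Dag1 lies at chr9:108081833-108152333, Sgca at chr11:94853605-94867273, Sgcb at chr5:73790086-73805133, and Sgcd at chr11:46787080-47879796, all on the minus strand. Sspn lies at chr6:145877367-145910950 on the plus strand. The canonical dystrophin transcript has 79 exons and 14945 bases, and that of Sgca has 10 exons and 1497 bases. The annotation (GENCODE M39) puts a gene on the opposite strand over 7 of the 8 members. Of the 6 such genes that are also in the files, Gm12176, opposite Sgcd, had 4.06 to 22.49 estimated counts per library, and the other 5 had at most 6. Whether counting used the strand is not given in the sources used here.

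The promoters of 4 members are shown because Dmd was the lowest member by far and Sspn correlated most closely with Sgcb and Sgcd across libraries. Each line holds the 250 bases before the start of the canonical transcript on GRCm39, written along the strand of the gene. Capitals mark matches on either strand to the E-box (CANNTG), MCAT element (CATTCC), MEF2 site, and CArG box, the sites that myogenic factors, TEAD factors, MEF2, and SRF are known to bind, and the capital runs do not touch each other. The window of Dmd is chrX:81992224-81992473 (plus strand), that of Sgcb chr5:73805134-73805383 (minus), that of Sgcd chr11:47270350-47270599 (minus), and that of Sspn chr6:145879583-145879832 (plus).
Dmd: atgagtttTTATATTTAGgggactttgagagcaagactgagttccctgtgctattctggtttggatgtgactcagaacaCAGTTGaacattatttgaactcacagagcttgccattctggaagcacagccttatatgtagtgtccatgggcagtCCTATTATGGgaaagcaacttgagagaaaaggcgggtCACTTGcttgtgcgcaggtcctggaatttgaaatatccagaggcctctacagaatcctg
Sgcb: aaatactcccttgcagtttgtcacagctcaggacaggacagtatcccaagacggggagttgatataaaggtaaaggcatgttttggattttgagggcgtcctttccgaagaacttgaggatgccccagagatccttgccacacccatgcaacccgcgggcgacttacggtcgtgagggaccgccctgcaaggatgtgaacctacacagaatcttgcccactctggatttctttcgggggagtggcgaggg
Sgcd: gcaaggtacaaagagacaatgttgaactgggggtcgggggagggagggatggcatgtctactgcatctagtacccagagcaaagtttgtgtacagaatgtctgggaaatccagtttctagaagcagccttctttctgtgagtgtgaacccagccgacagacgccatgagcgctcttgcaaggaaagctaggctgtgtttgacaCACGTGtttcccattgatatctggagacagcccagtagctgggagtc
Sspn: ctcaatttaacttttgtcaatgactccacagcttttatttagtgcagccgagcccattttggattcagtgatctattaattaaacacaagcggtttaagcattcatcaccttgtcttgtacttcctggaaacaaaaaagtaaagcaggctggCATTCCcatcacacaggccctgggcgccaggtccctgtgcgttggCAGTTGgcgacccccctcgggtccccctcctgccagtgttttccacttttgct
The Dmd window holds 2 E-boxes, 1 MEF2 site, and 1 CArG box. Among 21247 promoters of protein-coding genes of the same length, 64.9% hold an E-box, 2.80% a MEF2 site, 1.42% a CArG box, and 12.1% an MCAT element. Sgcd and Sspn hold 1 E-box each, Sspn also holds 1 MCAT element, and Sgcb holds none of the 4 motifs within this window. A match is a string of letters and was not tested as a binding site. The window of Sgca overlaps exons of its other transcripts and is not shown.

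Per transcript length, the complex genes ran from Dag1 at the top to Dmd at the bottom. Over the 24 libraries, mean TPM was 110.0 for Dag1, which encodes both subunits of dystroglycan, 94.0 for Sgcb (beta-sarcoglycan), 91.8 for Sgca (alpha-sarcoglycan), 45.9 for Sspn (sarcospan), 41.8 for Dtna (alpha-dystrobrevin), 19.0 for Sgcd (delta-sarcoglycan), 11.5 for Utrn, and 0.72 for Dmd. The steps from Sgca to Sspn, from Dtna to Sgcd, from Sgcd to Utrn, and from Utrn to Dmd held in each of the 24 libraries. The neighbors at the top were not separated. Dag1 exceeded Sgcb in 18 of 24 libraries, in all 6 of the control and of 10 Hz but in 3 of 6 at 1 Hz and 3 of 6 at 4 Hz, Sgcb exceeded Sgca in 13, and Sspn exceeded Dtna in 19. Utrn stood 15.9-fold above Dmd. Dmd was read from 35 to 118 estimated counts per library, so its values are the least precise of the group.

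**Figure D1:**
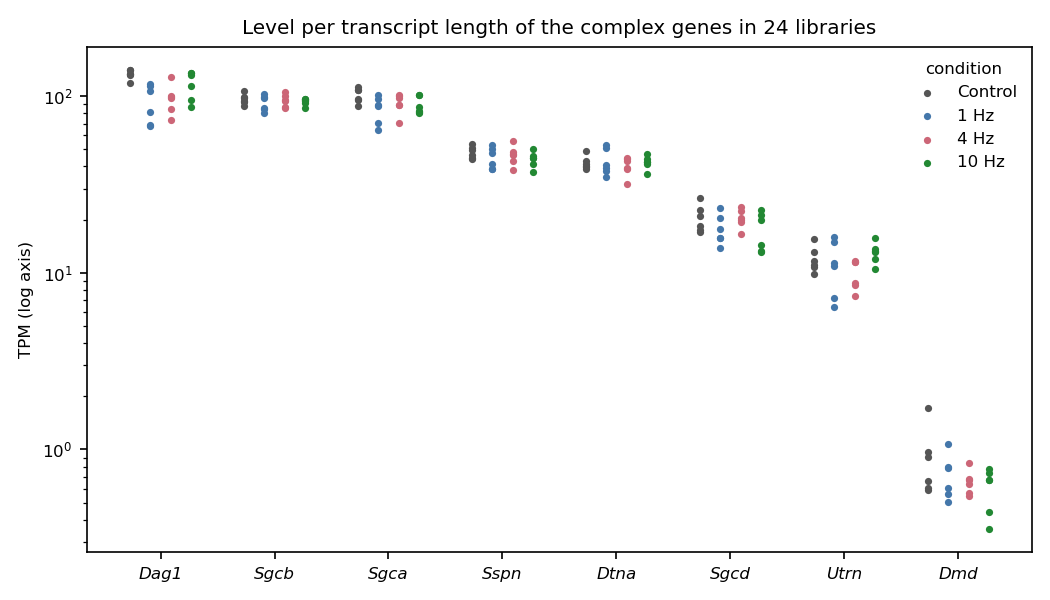
TPM of each complex gene (log axis) in the 24 libraries, 1 point per library, colored by condition. Dag1, Sgcb, and Sgca overlap at the top, and Dmd, between 0.35 and 1.72 TPM, lies below Utrn in every library.

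Some members differed from control at 1 and 4 Hz and no member passed the test at 10 Hz, measured on counts scaled between libraries by TMM and given as CPM (counts scaled to a fixed effective library size). At 1 Hz, 1 member rose (Dtna) and 1 fell (Dag1), where 19.2% of all genes tested were called higher and 18.1% lower. At 4 Hz, 4 members rose (Sgca, Sgcb, Sspn, and Dtna) and 0 fell, against 27.5% of all genes higher and 23.9% lower. At 10 Hz, 0 of 8 members passed the threshold in either direction, where 0.015% of all genes were called higher and 0.0225% lower. With edgeR, 0 members also had an unadjusted p under 0.05 at 10 Hz, and DESeq2 and limma called 0 there. The median fold change of the 8 members on the log2 scale was 0.06, 0.26, and -0.13 at 1, 4, and 10 Hz, beside 0.04, 0.06, and 0.01 for all genes tested. With an absolute log2 fold change over 0.5 also required, 0 members were called at 1 Hz (14.9% of all genes), 0 at 4 Hz (25.1%), 0 at 10 Hz against 1 Hz (10.8%), and 1, Sgcd, at 10 Hz against 4 Hz (21.2%).

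**Figure D2:**
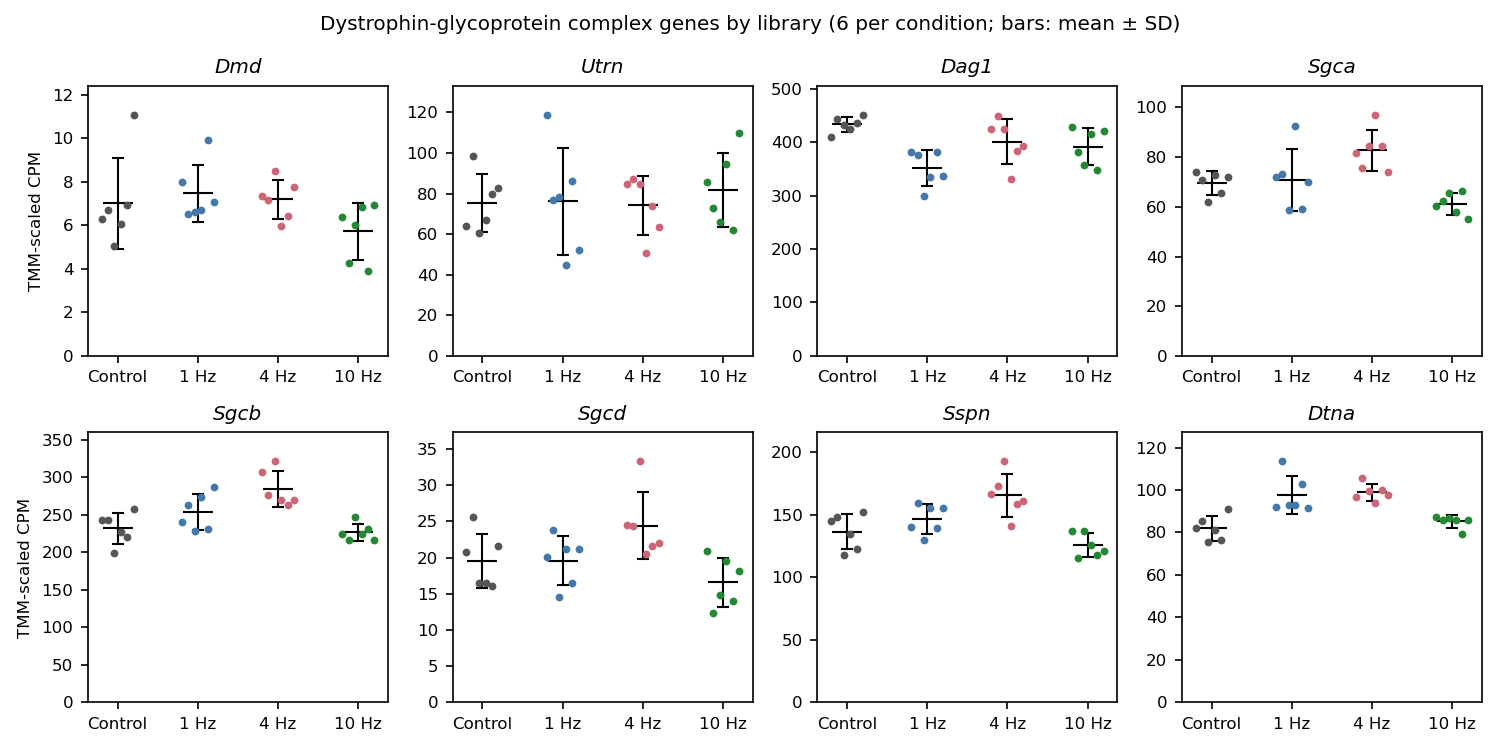
TMM-scaled CPM of the 8 genes in each of 6 libraries per condition (points), with mean and SD (black bars). At 1 Hz every library lies below the controls for Dag1 and above them for Dtna, and at 4 Hz every library lies above the controls for Sgcb and Dtna, on this scale.

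The scale between libraries matters for these calls. Without rescaling, on log2(TPM + 1), the median of all genes lay at -0.14 at 1 Hz and at -0.21 at 4 Hz, against 0.04 and 0.06 after TMM, and at -0.01 at 10 Hz. In that unit 3664 higher and 3178 lower genes at 4 Hz became 795 higher and 4820 lower, and the 4 higher members became 0 higher and 1 lower (Dag1). Several measures of the libraries moved with 1 and 4 Hz. Genes with transcripts of 5000 bases or more deviated from the control mean by -0.44 to 0.09 (log2, median per library) at 1 Hz and by -0.44 to -0.02 at 4 Hz, against -0.14 to 0.11 in controls and -0.21 to 0.20 at 10 Hz. Ribosomal protein genes took 14.4% to 16.3% of the TPM in controls, 15.3% to 20.2% at 1 Hz, 16.8% to 22.0% at 4 Hz, and 14.7% to 17.0% at 10 Hz, and the mitochondrial share ran up to 12.6% in 1 library at 4 Hz. TMM factors were under 0.95 in replicates 4 and 6 at 1 Hz and in replicates 3 and 4 at 4 Hz, and in no other library. Their part in the results was not tested, and the calls of members against control are given below also relative to the median of all genes on TPM.

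**Figure D3:**
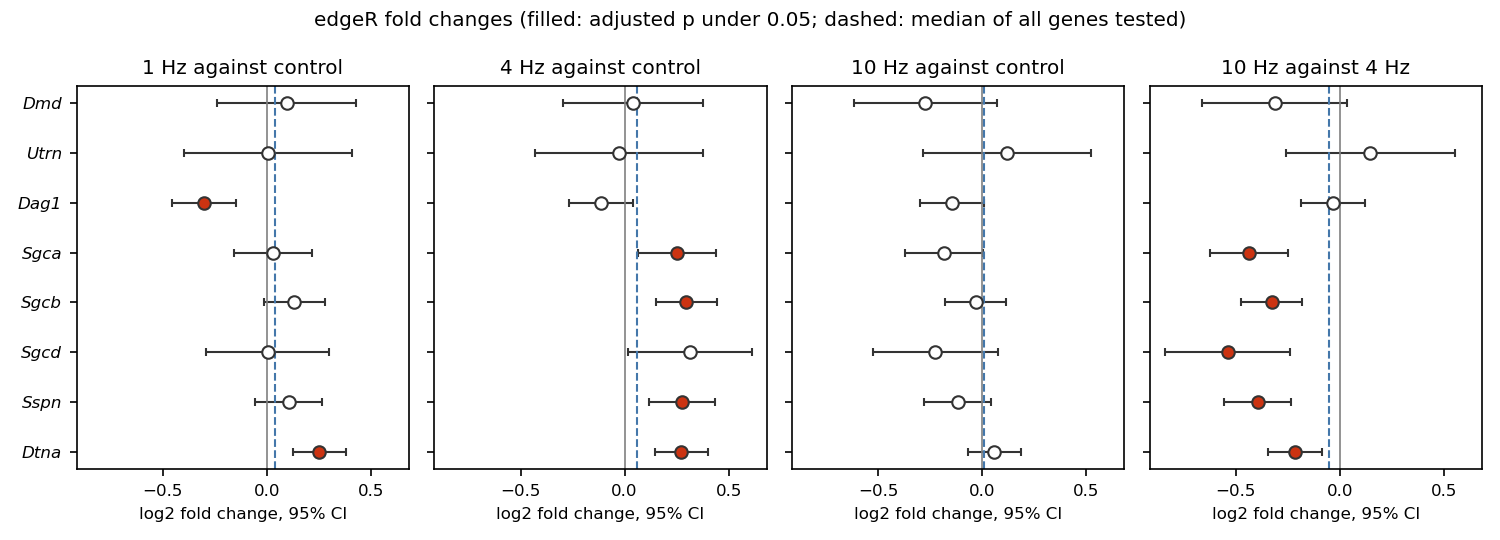
Log2 fold change with 95% confidence interval (edgeR, TMM) of each complex gene in 4 comparisons. Filled points have an adjusted p under 0.05, and the dashed line is the median of all genes tested. Dag1 at 1 Hz is the only filled point below 0 against control, and 5 genes are filled below 0 at 10 Hz against 4 Hz, although on uncentered log2(TPM + 1) the filled points above 0 at 4 Hz lie below 0.

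Dag1 was lower at 1 Hz on every scale used. Its CPM was 409.9, 434.5, and 451.1 (lowest, median, highest) in controls and 298.5, 356.6, and 381.5 at 1 Hz. The groups did not overlap, as was true of 8.58% of all genes in this direction. Dag1 fell by 18.8% at 1 Hz (log2 fold change -0.30, SE 0.075, edgeR adjusted p = 0.00295). The difference was -0.55 on log2(TPM + 1), which is -0.41 relative to the median of all genes, and -0.18 after the trend with transcript length was removed (adjusted p = 0.0148), and each of these was called. At 4 Hz, Dag1 ran from 330.2 over 408.3 to 448.3 CPM and overlapped the controls. The fold change was -0.11 there, with a 95% interval of -0.27 to 0.04, and at 10 Hz it was -0.14, with an interval of -0.30 to 0.01. The direct comparison of 4 with 1 Hz did not separate them (0.19, adjusted p = 0.405), so the change was not shown to be particular to 1 Hz.

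Dtna, the dystrobrevin that binds dystrophin and the syntrophins, rose at both 1 and 4 Hz. Control libraries had 75.4, 81.6, and 91.0 CPM (lowest, median, highest), those at 1 Hz 91.3, 92.9, and 113.5, and those at 4 Hz 94.0, 98.7, and 105.8. Every library at either frequency was above every control, which held for 5.55% of all genes at 1 Hz and 12.9% at 4 Hz. The rise was 19.1% at 1 Hz (log2 fold change 0.25, SE 0.062, edgeR adjusted p = 0.00269) and 20.8% at 4 Hz (0.27, SE 0.062, adjusted p = 0.000825). At 10 Hz the range was 79.2 to 87.2 CPM, inside that of the controls, with a fold change of 0.06 (interval -0.07 to 0.19). All values at 10 Hz were below every library at 1 Hz, as held for 2.67% of all genes, and at 4 Hz, as held for 8.1%. The log2 fold changes were -0.19 (edgeR adjusted p = 0.0227) and -0.22 (adjusted p = 0.007). On log2(TPM + 1) the difference from control was 0.01 at 1 Hz and -0.06 at 4 Hz, which is 0.16 and 0.15 above the median of all genes, and neither was called without centering.

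Sgcb and Sspn, which encode a core sarcoglycan and the tetraspan-like protein that associates with the sarcoglycans, rose at 4 Hz after TMM scaling but differed from control by -0.03 and -0.05 on uncentered log2(TPM + 1). Sgcb had 199.1, 235.4, and 257.2 CPM in controls (lowest, median, highest), 228.7, 251.1, and 287.3 at 1 Hz, 263.4, 273.4, and 321.1 at 4 Hz, and 216.1, 224.7, and 246.8 at 10 Hz. All 6 libraries at 4 Hz exceeded the controls, which held for 12.9% of all genes. The rise of Sgcb was 22.7% (log2 fold change 0.30, SE 0.071, edgeR adjusted p = 0.00134), or 0.18 above the median of all genes on TPM. Sspn had 117.5, 139.6, and 152.2 CPM in controls and 140.7, 163.8, and 192.6 at 4 Hz, where 5 of 6 libraries exceeded every control. It rose by 21.0% (0.28, SE 0.078, adjusted p = 0.00487), or 0.16 above that median. With median-centered TPM both stayed called (adjusted p = 0.0025 and 0.0084), as they did after the length trend was removed. At 1 Hz the fold changes were 0.13 for Sgcb and 0.10 for Sspn, and neither passed the test (adjusted p = 0.145 and 0.302). Sgcb was called at 1 Hz once the length trend was removed (0.23, adjusted p = 0.0449).

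Sgca, the muscle-specific sarcoglycan, was called higher at 4 Hz, but this call was the least stable of the 4. Its CPM was 61.8, 71.3, and 73.9 in controls (lowest, median, highest), 58.6, 70.9, and 92.3 at 1 Hz, 73.8, 83.1, and 97.0 at 4 Hz, and 55.1, 61.3, and 66.2 at 10 Hz. The rise at 4 Hz was 19.2% (log2 fold change 0.25, SE 0.091, edgeR adjusted p = 0.0221), and 5 of 6 libraries exceeded all of the controls. It was no longer called without replicate 3 or 5 of the control or replicate 3 or 4 at 4 Hz (0.17 to 0.22, adjusted p = 0.0588 to 0.106), with median-centered TPM (0.15, adjusted p = 0.236), or with the length trend removed (0.07, adjusted p = 0.432), and on uncentered log2(TPM + 1) it was -0.15, or 0.055 above the median of all genes. The call was also lost with no filter on low counts (0.21, adjusted p = 0.0952) and without the libraries of low TMM factor (0.15, adjusted p = 0.101). At 1 Hz the fold change was 0.03, with an interval of -0.16 to 0.22.

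Sgcd, the gene of a sarcoglycan that pairs with beta-sarcoglycan, had a positive fold change at 4 Hz that did not pass the test. It had 16.1, 18.6, and 25.5 CPM in controls (lowest, median, highest), 14.6, 20.6, and 23.8 at 1 Hz, 20.5, 23.2, and 33.3 at 4 Hz, and 12.4, 16.5, and 20.9 at 10 Hz. One library at 4 Hz, replicate 3, stood apart at the top, and the others overlapped the controls. The fold change was 0.31 at 4 Hz (interval 0.02 to 0.61, edgeR adjusted p = 0.0707), 0.00 at 1 Hz, and -0.23 at 10 Hz. Without replicate 2 of the control, the highest control library, it was 0.41 at 4 Hz and was called (adjusted p = 0.0226), as it was with upper-quartile factors (0.35, adjusted p = 0.0463). That was the only 1 of 12 fits leaving out 1 library in which Sgcd was called, with fold changes from 0.18 to 0.41. Sgcd was not called at 4 Hz with median-centered TPM (0.30, limma adjusted p = 0.074) or with the length trend removed (0.22, edgeR adjusted p = 0.22). On uncentered log2(TPM + 1) it was at -0.0043 and was not called.

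The sarcoglycans, Sspn, and Dtna were lower at 10 Hz than at 4 Hz. In this direct comparison 5 members fell and 0 rose, where 24.4% of all genes tested were lower and 21.9% higher. Sgcd fell by 31.2% (log2 fold change -0.54, SE 0.15, edgeR adjusted p = 0.00439), Sgca by 26.1%, Sspn by 23.9%, Sgcb by 20.3%, and Dtna by 13.8%. For Sgca, Sgcb, Sspn, and Dtna, all 6 libraries at 10 Hz lay below all 6 at 4 Hz, which held for 8.1% of all genes. The 5 calls held when any single library was left out, and they were called also with median-centered TPM and with the length trend removed, where Dmd and Dag1 (-0.18) were called lower as well. With no filter on low counts Dtna was no longer called (-0.18, adjusted p = 0.0978). On uncentered log2(TPM + 1) none of them was called, and there Dtna was at 0.08 while the median of all genes was at 0.20. Dmd (-0.31), Utrn (0.15), and Dag1 (-0.03) did not pass the test (adjusted p = 0.133, 0.566, and 0.747).

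Fewer members differed between the other frequencies. Against 1 Hz, 2 members were lower at 10 Hz (Dtna and Sspn) and 0 higher, where 13.1% of genes were lower and 14.8% higher. Sspn fell by 14.3% in that comparison (adjusted p = 0.0354) and lost its call in 7 of the 12 fits that left out 1 library (replicates 2, 4, and 6 at 1 Hz and 2, 4, 5, and 6 at 10 Hz, with fold changes from -0.22 to -0.19). Dtna lost its call without replicate 2 at 1 Hz (-0.15) or replicate 5 at 10 Hz (-0.16). It was also lost with median-centered TPM (-0.20) and with only the 2 groups compared (-0.19). With no filter on low counts neither gene was called (Sspn -0.20, Dtna -0.17). On uncentered log2(TPM + 1) Sspn was at -0.030 and Dtna at -0.0009, and neither was called. Both stayed called with the length trend removed, and Sspn with median-centered TPM. Between 4 and 1 Hz 0 members were called, as were 0% of all genes, with fold changes from -0.05 (Dmd) to 0.31 (Sgcd). There, 5 members and 1465 of the 13315 genes had an unadjusted p under 0.05 with edgeR. After adjustment DESeq2 and limma also called 0 members.

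**Figure D4:**
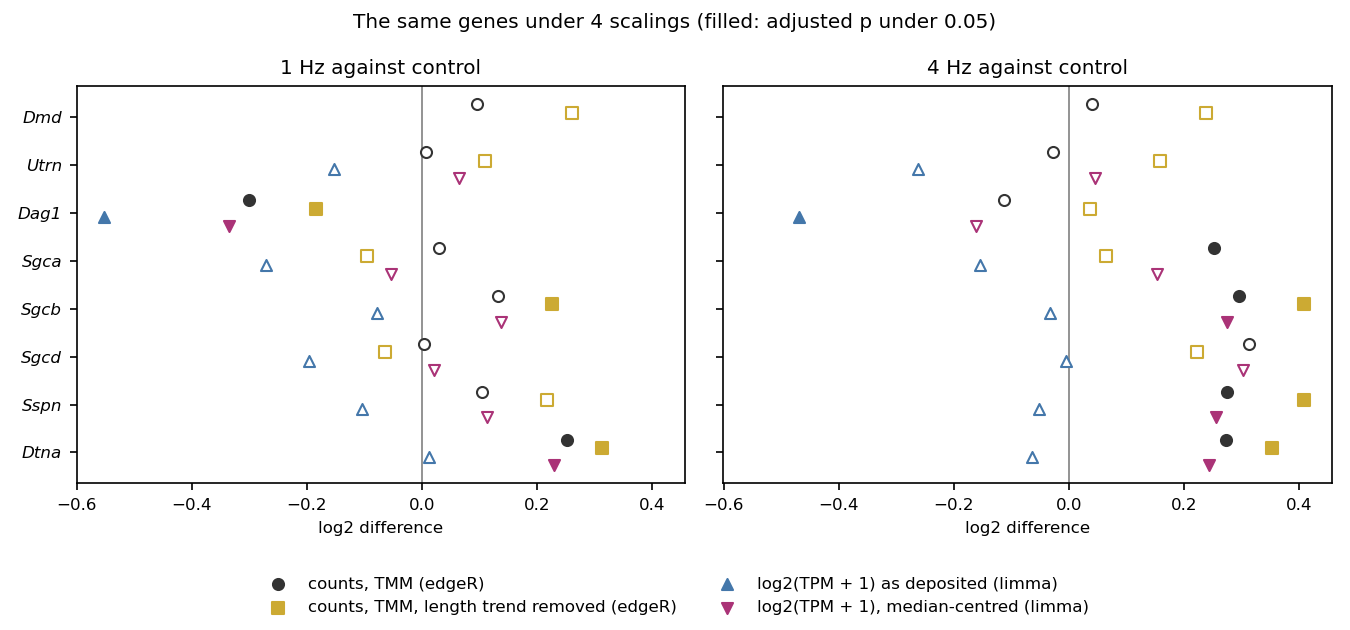
Log2 difference of each complex gene from control at 1 Hz (left) and 4 Hz (right) under 4 scalings, filled where the adjusted p was under 0.05. Dag1 is filled at 1 Hz under each scaling, Sgcb, Sspn, and Dtna are filled at 4 Hz under each scaling but uncentered log2(TPM + 1), where they lie just below 0, and Dmd was too low for the filter on TPM.

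Dmd and Utrn, the actin-binding ends of the complex, passed the test in none of the 6 comparisons. Dmd had 5.07, 6.50, and 11.1 CPM in controls (lowest, median, highest), 6.52, 6.89, and 9.92 at 1 Hz, 5.97, 7.28, and 8.49 at 4 Hz, and 3.91, 6.19, and 6.94 at 10 Hz, and the ranges overlapped throughout. Its fold changes against control were 0.09 (interval -0.24 to 0.43), 0.04 (-0.30 to 0.38), and -0.27 (-0.62 to 0.07) at 1, 4, and 10 Hz. After the length trend was removed, Dmd was called lower at 10 Hz than at 1 Hz (-0.56, adjusted p = 0.0057) and than at 4 Hz (-0.54, adjusted p = 0.0055). Utrn had 60.8, 73.2, and 98.7 CPM in controls, 44.6, 77.5, and 118.7 at 1 Hz, 50.5, 79.3, and 87.4 at 4 Hz, and 61.8, 79.1, and 109.8 at 10 Hz. It varied more between the libraries of a condition than between conditions, with a coefficient of variation of 34.7% at 1 Hz. Fold changes of Utrn were 0.01, -0.03, and 0.12, and their intervals reached from -0.43 to 0.52, so changes within about that range were not excluded.

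The ratio of Utrn to Dmd within a library is free of the scaling between libraries. By TPM, Utrn exceeded Dmd by 6.76 to 23.4-fold in controls (median 15.7), 12.7 to 20.3-fold at 1 Hz (13.9), 8.80 to 20.4-fold at 4 Hz (16.4), and 17.5 to 29.8-fold at 10 Hz (20.7). On the log2 scale the mean was 3.82 ± 0.65 (SD, n = 6) in controls and 4.47 ± 0.30 at 10 Hz. The difference of 0.65 had a two-sided exact permutation p of 0.0433, which was 0.13 after adjustment over 3 comparisons and did not pass (the smallest p that 6 against 6 libraries allow is 0.00216). Without control replicate 2 the difference was 0.80 and passed (exact permutation test, adjusted p = 0.0195). It was the only 1 of 12 such fits that passed. The differences with 1 library left out ran from 0.44 to 0.80 (exact permutation test, adjusted p up to 0.273). At 1 and 4 Hz the differences were 0.11 and 0.09, with exact permutation p of 0.727 and 0.797, and they were -0.16 and -0.10 on estimated counts in place of TPM.

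Dividing the estimated count by TPM gives the mean length of the transcripts in use, which was set to bases on 124 genes with a single transcript. Dmd transcripts averaged 12912 ± 2460 bases in controls (SD, n = 6), 14499 ± 1283 at 1 Hz, 14041 ± 2705 at 4 Hz, and then 14888 ± 1046 at 10 Hz, near the canonical 14945 bases that begin at the promoter shown above. A shorter annotated coding transcript of 10809 bases starts downstream, at 82899013 on the X chromosome. Others of 5272 to 5540 bases start farther downstream, at 84091925 or 84092019. Replicates 1, 5, and 6 of the control, replicate 2 at 1 Hz, and replicate 4 at 4 Hz lay at 10576, 11568, 10101, 12108, and 8606 bases, and the other 19 libraries between 12941 and 15517. The highest values exceed the longest annotated Dmd transcript, of 14945 bases, so the lengths in bases are approximate. Utrn averaged 9865 ± 696 bases in controls, 9402 ± 1359 at 1 Hz, 9402 ± 915 at 4 Hz, and then 9734 ± 1665 at 10 Hz, between a full-length transcript of 13544 and one of 6148 bases. By limma over 11503 genes, 0 of 8 members changed in length at any frequency, where 0.0782% of genes did at 1 Hz, 1.08% at 4 Hz, and none (0%) at 10 Hz. The unadjusted p was under 0.05 for Sgcb and Sspn at 4 Hz, with differences of 1.2% each, and for no member at 1 or 10 Hz. For Dmd the differences in length from control were 0.19, 0.13, and 0.22 (log2, SE 0.13) at 1, 4, and 10 Hz.

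**Figure D5:**
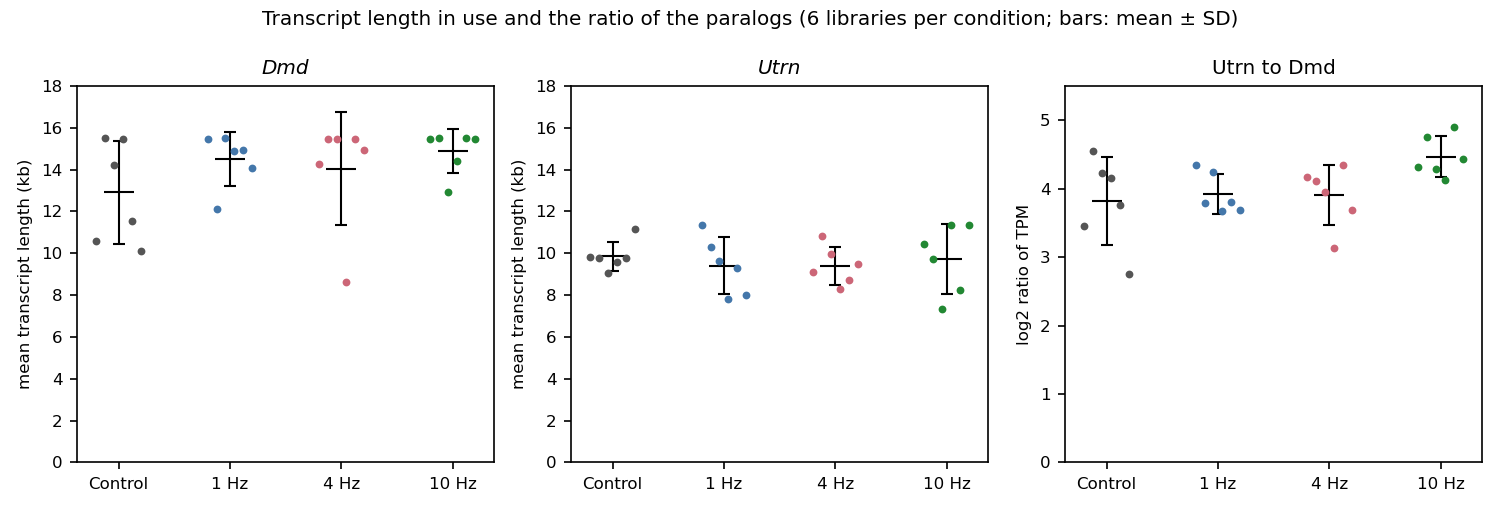
Mean transcript length of Dmd and Utrn in kilobases and the log2 ratio of their TPM, 1 point per library, with mean and SD. Dmd is spread from 8.6 to 15.5 kb, with 3 of the 5 short values in controls, and the ratio at 10 Hz averages 4.47 and overlaps the controls.

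Across the 24 libraries, pairs of members moved together to different degrees on log2 CPM, given as a description since the libraries share conditions and scaling. Sgcb and Sspn had r = 0.91 (0.82 after subtracting the mean of each condition), Sgcd and Sspn r = 0.87 (0.80), and Sgca and Sgcb r = 0.75 (0.54). Dmd and Utrn had r = 0.38 (0.54), Utrn and Dag1 r = 0.52 (0.69), and Dmd and Dag1 r = 0.28 (0.56). Utrn and Sgca had r = -0.45 (-0.51). Utrn followed the deviation of long transcripts in a library (r = 0.85, and 0.91 within conditions), as did Dag1 less closely (0.64). Sgca (-0.69) and Sgcb (-0.57) went against it, and Sspn (-0.33) and Dtna (-0.17) did so weakly. Dmd, with the longest canonical transcript, had r = 0.22 (0.50 within conditions). Sgcd, nearly as short as Sgca, had r = -0.10 (0.20 within conditions). A role of transcript length in these values was not tested. The genes most like Dmd among 13314 were Slc4a4 (r = 0.796), Kdm7a (0.775), and Cpd (0.752). Those most like Utrn were Smg1 (0.945), Ahnak (0.939), and Tmem245 (0.931), and those most like Sgca were Pbxip1 (0.916), Pfkm (0.913), and Ndrg2 (0.913).

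Genes that work with the complex were followed in 5 lists of 53 genes, of which 46 passed the filter. At 1 Hz, 7 of them were higher and 10 lower, with a median log2 fold change of 0.05, at 4 Hz 14 were higher and 11 lower, with a median of 0.08, and at 10 Hz 0 were called. Of all genes tested, 19.2% were higher and 18.1% lower at 1 Hz and 27.5% higher and 23.9% lower at 4 Hz, so the counts of the 46 genes lie near the background, and the counts of each list below are to be read against the same shares. At 10 Hz, edgeR gave 5 of them an unadjusted p under 0.05, as it did 1074 of all 13315 genes.

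The enzymes that glycosylate dystroglycan held most of the lower calls. Of 17, 3 were higher and 8 lower at 1 Hz, with a median of -0.19, and 4 were higher and 8 lower at 4 Hz, with a median of -0.16, against 0.04 and 0.06 for all genes, of which 18.1% were lower at 1 Hz and 23.9% at 4 Hz. Pomk, the kinase that phosphorylates the core mannose of dystroglycan, fell from 14.8 ± 2.72 CPM (SD, n = 6) in controls to 8.72 ± 0.83 at 1 Hz and 7.99 ± 1.49 at 4 Hz. It fell by 40.9% at 1 Hz and fell by 45.5% at 4 Hz (edgeR adjusted p = 5.83e-05 and 6.26e-06). All 6 libraries at 1 Hz were below every control, which held for 8.58% of all genes. Pomt2, an O-mannosyltransferase, fell by 22.7% at 1 Hz, and Dolk, the dolichol kinase, fell by 28.3%. Pomk, Pomt2, and Dolk were lower under each of the 4 scalings at both frequencies. Dpm3, a subunit of dolichol-phosphate mannose synthase, rose by 45.5% and 82.6%, and B4gat1, which primes the laminin-binding glycan, rose by 27.5% and 41.6%. On uncentered log2(TPM + 1) B4gat1 was at 0.13 and 0.17 and was not called, and Dpm3 at 1 Hz was at 0.11 and was not called with the length trend removed.

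Among other subunits and paralogs, 4 of 6 were tested. Sgce, the paralog of alpha-sarcoglycan, rose by 38.4% at 1 Hz and 36.3% at 4 Hz (edgeR adjusted p = 0.000461 and 0.000467). Dtnb, the second dystrobrevin, rose by 27.0% at 4 Hz (adjusted p = 0.0327). On uncentered log2(TPM + 1) Sgce was at 0.22 and 0.09 and Dtnb at -0.01 in these comparisons, and neither was called.

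Of 15 cytoplasmic partners, 11 were tested, with 1 higher and 1 lower at 1 Hz and 2 higher and 1 lower at 4 Hz, shares below those of all genes in both directions. Sync, syncoilin, an intermediate filament protein that binds dystrobrevin, fell by 32.4% and 32.3% (edgeR adjusted p = 0.000619 and 0.000384) and was lower under each of the 4 scalings. Krt19, a keratin that links sarcomeres to dystrophin, rose by 36.1% and 60.7%, also under each scaling. Cav3, the muscle caveolin, rose by 32.3% at 4 Hz (adjusted p = 0.0181), but was at 0.19 and not called with the length trend removed. The gene of neuronal nitric oxide synthase, Nos1, had at most 6 counts in a library and was not tested.

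Ligands in the basement membrane gave 2 higher and 0 lower calls of 10 tested at 1 Hz and 3 higher and 1 lower at 4 Hz, where 19.2% and 27.5% of all genes were higher. Agrn, agrin, rose by 23.3% and 22.5% (edgeR adjusted p = 0.0275 and 0.0245). The laminin beta chain Lamb1 rose by 21.5% at 1 Hz and Lamb2 by 20.9% at 4 Hz, and Nid1, nidogen, fell by 21.4% at 4 Hz. On uncentered log2(TPM + 1) Lamb2 at 4 Hz was at -0.09 and none of these higher calls was made, whereas Nid1 was called lower (-0.68). With the length trend removed, 5 ligands were higher at 1 Hz and 6 at 4 Hz, and Nid1 was no longer called (-0.18, adjusted p = 0.0591). In that setting 2567 of all 13315 genes were higher at 1 Hz and 3305 at 4 Hz. Of the 4 integrin genes, Itga7 and Itgb1, the main laminin-binding pair of muscle, rose by 14.5% and 13.8% at 4 Hz (adjusted p = 0.0152 and 0.0349) and were at -0.11 and -0.12 on uncentered log2(TPM + 1). Itga7 was no longer called with median-centered TPM (adjusted p = 0.0669). Itga6 fell by 16.7% at 1 Hz and fell by 15.9% at 4 Hz, but was called at neither frequency with the length trend removed (-0.19 and -0.16), nor at 1 Hz with median-centered TPM (-0.21).

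Some markers of the culture were also called at 1 and 4 Hz. Of all genes tested, 19.2% were higher and 18.1% lower at 1 Hz, and 27.5% higher and 23.9% lower at 4 Hz. The calls of the myotube markers were below these shares in both directions. Of the 10 myotube markers, 1 was lower at 1 Hz (Myog, log2 fold change -1.34), and at 4 Hz 1 was lower (Myog, -1.47) and 1 higher (Myh8, 0.37). The cycling or undifferentiated myoblast markers gave 2 higher and 1 lower calls at 1 Hz and 2 higher and 3 lower at 4 Hz, the fibroblast markers 2 higher and 1 lower at each, and 1 of 2 tested endothelial, blood, and nerve markers, Tubb3, was lower at each. At 10 Hz 0 of these markers were called. Their part in the changes of the complex genes was not tested.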

How the data were processed

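RNA was sequenced from 24 C2C12 libraries, 6 per condition. The authors aligned reads to GRCm39 and deposited, per gene, estimated counts and TPM (scaled by transcript length within a library). The submitters' processing notes also name STAR, Salmon, BWA 0.7.12-r1039, and bedtools 2.25.0, and the builds mm10 and hg19. The labels state that low-input samples were ribodepleted, without naming them.

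Rounding to whole numbers was applied to the deposited estimated counts before the count tests. The filter was filterByExpr (minimum count 10, total 15), and libraries were scaled by TMM, and tested with the quasi-likelihood test of edgeR 4.0.16 (R 4.3.3) in 1 fit over all 4 conditions, with Benjamini-Hochberg adjustment over 13315 genes and a threshold of 0.05. Intervals (95%) are the fold change plus or minus a t quantile times its SE. The biological coefficient of variation was 14.8%. Replicates are called biological in the study's methods. Transcript length was tested with limma 3.58.1, and the Utrn to Dmd ratio with a two-sided exact permutation test over 924 splits. The steps were tested on simulated data.

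Alternatives were RLE or upper-quartile factors, no filter on low counts or one of at least 50 in 6 libraries, a fit of the compared groups alone, the replicate number as a block, DESeq2 1.42.0, limma on log2(TPM + 1) or log2(TPM + 0.1), a log2 fold change over 0.5, and leaving out each library. Median-centered TPM, removal of the trend with transcript length, and omission of libraries with a TMM factor under 0.95 were chosen after seeing the data. The members and lists were chosen with earlier results of these data known. All members were named, with up to 2 genes per direction and list with the smallest p at each frequency, and the 3 genes most correlated with Dmd, Utrn, and Sgca. Pomt2, Dolk, Dtnb, and Nos1 were named after their values were seen, and some genes that the rule names are not reported here. Annotation and sequences came from GENCODE M39 on GRCm39.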

Additional observations from a re-analysis of the deposited data

Results flagged for a closer look

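In 9 of 68 groups of 6 libraries, 1 library stood far from the others of its condition, measured by its gap to the nearest library over the range of the group. Chance flags about 1 in 20 groups. Dmd had 11.1 CPM in control replicate 6, with the next control at 6.93 CPM. Sgcd had 33.3 CPM in 4 Hz replicate 3, with the next library at 24.5 CPM, and Dtna had 79.2 CPM in 10 Hz replicate 5, with the next at 86.0 CPM. The mean transcript length of Dmd was 8606 bases in 4 Hz replicate 4, against 14285 in the nearest library, and that of Utrn was 11164 bases in control replicate 6, against 9843. The length of Dtna was 3434 bases in 4 Hz replicate 2, against 3127. Lengths that varied little were flagged for Sgcb, at 3751 bases in control replicate 3 and 3749.6 bases in 4 Hz replicate 3, and for Sgcd, at 1503 bases in 4 Hz replicate 4.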

How the results depend on the processing

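The counts of complex genes called were within 1.5 times their main value with RLE and upper-quartile factors, the strict filter, and DESeq2. On log2(TPM + 1) and on log2(TPM + 0.1) the complex genes gave 0 higher at 1 Hz, 0 higher and 1 lower at 4 Hz, and 0 lower at 10 Hz against 1 Hz and against 4 Hz, and the associated genes gave 2 higher at 1 Hz and 2 higher and 17 lower at 4 Hz. Of all 13422 genes on log2(TPM + 1), 488 were higher at 1 Hz, and 795 were higher and 4820 lower at 4 Hz. At 10 Hz, 293 of them were lower than at 1 Hz and 688 lower than at 4 Hz. There, directions turned at 1 Hz for Utrn (-0.15 with a pseudocount of 1, -0.17 with 0.1), Sgca (-0.27, -0.27), Sgcb (-0.079, -0.080), Sgcd (-0.20, -0.21), and Sspn (-0.10, -0.11), at 4 Hz for Sgca (-0.15, -0.16), Sgcb (-0.032, -0.032), Sgcd (-0.0043, -0.0041), Sspn (-0.052, -0.053), and Dtna (-0.064, -0.065), and for Dtna at 10 against 4 Hz (0.076, 0.078). By construction TPM is not rescaled between libraries. With centered TPM, 1 complex gene was lower at 10 than at 1 Hz, Sgca was at -0.055 at 1 Hz, and Utrn at 0.046 at 4 Hz. With the length trend removed, 2 complex and 11 associated genes were higher at 1 Hz and 4 complex genes lower at 10 than at 1 Hz, with Sgca at -0.095 and Sgcd at -0.064 at 1 Hz, and Dag1 at 0.038 and Utrn at 0.16 at 4 Hz. Of all 13315 genes, 2567 were higher at 1 Hz in that setting and 1973 lower at 10 than at 1 Hz. Without the libraries of low TMM factor, 13 associated genes were higher at 1 Hz and 1 complex gene lower at 10 than at 1 Hz, with Sgca at -0.085 and Sgcd at -0.065 at 1 Hz and Utrn at 0.0051 at 4 Hz. For these and the following settings the cause was not tested. With a log2 fold change over 0.5 also required, complex genes gave 0 higher and 0 lower at 1 Hz, 0 higher at 4 Hz, 0 lower at 10 against 1 Hz, and 1 lower at 10 against 4 Hz, and associated genes 1 higher and 2 lower at 1 Hz and 4 higher and 4 lower at 4 Hz. With no filter, 4 associated genes were higher at 1 Hz and 5 at 4 Hz, 0 complex genes were lower at 10 against 1 Hz, and Utrn (-0.025), Sgca (-0.0037), and Sgcd (-0.029) at 1 Hz and Dmd (-0.0024) at 4 Hz turned. With only the groups compared, 1 complex gene was lower at 10 against 1 Hz. Small values also turned at 1 Hz for Sgcd with RLE (-0.0071), DESeq2 (-0.0071), and the strict filter (-0.0044), for Utrn with the strict filter (-0.0018), and at 4 Hz for Utrn with upper-quartile factors (0.0028). On estimated counts the Utrn to Dmd ratio differed by -0.16 at 1 Hz and -0.10 at 4 Hz.

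Leaving out 1 library gave 7 to 14 associated genes higher at 4 Hz (7 without 4 Hz replicate 4, 9 without control replicate 3 or 4 or 4 Hz replicate 5) and 0 to 3 complex genes lower at 10 than at 1 Hz. Fold changes ranged at 1 Hz from -0.0043 to 0.26 for Dmd, -0.16 to 0.10 for Utrn, -0.085 to 0.078 for Sgca, and -0.059 to 0.10 for Sgcd, at 4 Hz from -0.052 to 0.21 for Dmd and -0.10 to 0.064 for Utrn, and at 10 Hz from -0.068 to 0.00037 for Sgcb. Length differences (log2) ranged from -0.0066 to 0.075 for Dtna at 1 Hz, -0.0010 to 0.042 for Dtna at 4 Hz, -0.089 to 0.043 for Utrn at 10 Hz, and -0.046 to 0.038 for Sgca at 10 Hz. The Utrn to Dmd ratio ranged from -0.11 to 0.25, -0.13 to 0.24, and 0.44 to 0.80 at 1, 4, and 10 Hz.

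The replicate numbers did not pair the libraries, since deviations of libraries of the same number had r over 0.1 in 3 of 36 pairs (-0.33 to 0.24) and 0 of 24 libraries correlated best with its own number. With the replicate block, complex genes again gave 1 higher and 1 lower at 1 Hz, 4 higher at 4 Hz, 0 at 10 Hz, and 5 lower at 10 against 4 Hz, the associated genes 6 higher and 8 lower at 1 Hz and 12 higher and 10 lower at 4 Hz, and Utrn at 1 Hz was at -0.019. Dmd, at 35 to 118 estimated counts per library, is limited by depth.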
